A study of Homo sapiens with 6 samples.

Results

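Glycolysis, lactate and pyruvate entry genes were followed in HEK293, a human embryonic kidney cell line that is widely used to make recombinant protein. The set held 33 genes, from the glucose carriers through the enzymes of glycolysis to lactate dehydrogenase and pyruvate dehydrogenase. It was chosen by name, with earlier results of these data known. All 33 genes were found among the 56794 gene names of the authors' deposited table, which compares HEK293 cells that express luciferase and carry a CRISPR deletion of CASP8AP2 (labelled mutant, 3 libraries) with HEK293 cells that express luciferase alone (labelled parental, 3 libraries). Both groups thus carry the luciferase reporter, and both were grown in serum-containing medium, with no further treatment named in the labels beyond trypsin and freezing. The sources used here do not state whether the mutant cells were 1 clone or a pool, nor where in the gene the deletion lies.

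Glycolysis splits glucose into pyruvate in the cytosol and yields a little ATP without oxygen. Its first part spends ATP to make fructose 1,6-bisphosphate, its second part regains ATP and NADH, and pyruvate then either becomes lactate and leaves the cell or enters mitochondria, where the pyruvate dehydrogenase complex turns it into acetyl-CoA. Cultured lines such as HEK293 are known for high rates of glycolysis and for secreting lactate even with oxygen present.

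The table gave 1 mean for each group and transcript, so no value of a single library and no spread between replicates can be shown, and nothing in the labels says that the libraries came from separate cultures. Levels below are the authors' group means of a length-scaled abundance, which can be compared between genes, with the authors' added 1 taken off and summed over the transcripts of a gene. A log2 ratio sets the mutant sum over the parental sum, each raised by 1, which understates the change of genes with low values. Genes at 1 or more in either group were kept, 14856 in number, and a log2 ratio of at least 0.5 in size is called past the fold, which is a description of size and no test. The p-values are the authors' own for single transcripts, and a call means an adjusted p under 0.05. Estimated depth on transcripts was 1.33e+07 to 5.74e+07 reads in the mutant libraries and 9.18e+06 to 1.53e+07 in the parental ones. CASP8AP2 RNA stood at 15.7 in mutant and 15.9 in parental cells, so RNA level does not check the deletion. Among 8 genes named as a check of the line, VIM (530 in mutant and 425 in parental cells), KRT8 (37.3 and 70.6), KRT18 (51.8 and 57.7) and PAX2 (3.08 and 1.80) were present in both groups, and PAX8 was at most 0.114. The neural genes differed widely, NEFL at 434 and 35.7, NEFM at 0.0690 and 8.63 and SOX11 at 0.00260 and 3.35. The blood, liver and vessel markers PTPRC, CD3E, HBB, ALB and PECAM1 all stayed at or under 0.205, and COL1A1, a fibroblast collagen gene, stood at 5.82 against 2.17. The part of these markers in the results was not tested.

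Most of the abundant glycolysis genes lay lower in the mutant group, while the enzymes at the top of the pathway were mixed. Summed over the 33 genes the level was 3620 in mutant and 5037 in parental cells, or 0.730% and 1.02% of all abundance. Of the 31 genes kept, 22 lay lower and 9 higher, against 50.6% lower and 49.4% higher among all genes kept. Past the fold were 7 lower genes (SLC2A3, SLC2A1, TPI1, GAPDH, ALDOA, LDHB, LDHA), where the share over all genes is 11.3%, and 3 higher genes (ENO3, PDHA1, PFKL), where it is 11.5%. The median log2 ratio of the 31 genes was -0.24, with quartiles of -0.43 and 0.11, beside -0.01 over all genes kept, with quartiles of -0.28 and 0.27.

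No transcript of the set was called. Of its 433 transcripts 341 were tested by the authors, per their deposited table, 0 had an adjusted p under 0.05 (0.0221% of all transcripts did), and 14 had an unadjusted p under 0.05, 7 lower and 7 higher (2.48% and 3.3% of all transcripts). That is 4.11% of the set, against 5.79% of all transcripts tested. Among the 142 transcripts of the set at 1 or more, 6 were lower and 3 higher at such a p, where 6.01% and 5.78% of all transcripts of that level were. Counted by the leading transcript of each gene, 4 of the 31 genes were lower at an unadjusted p under 0.05 (SLC2A1, SLC2A3, GAPDH and ENO1), where 8.63% of all genes were, and 1 was higher (PDHA1), where 5.17% were. The differences below are given as levels, since none passed adjustment over all transcripts.

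**Figure D1:**
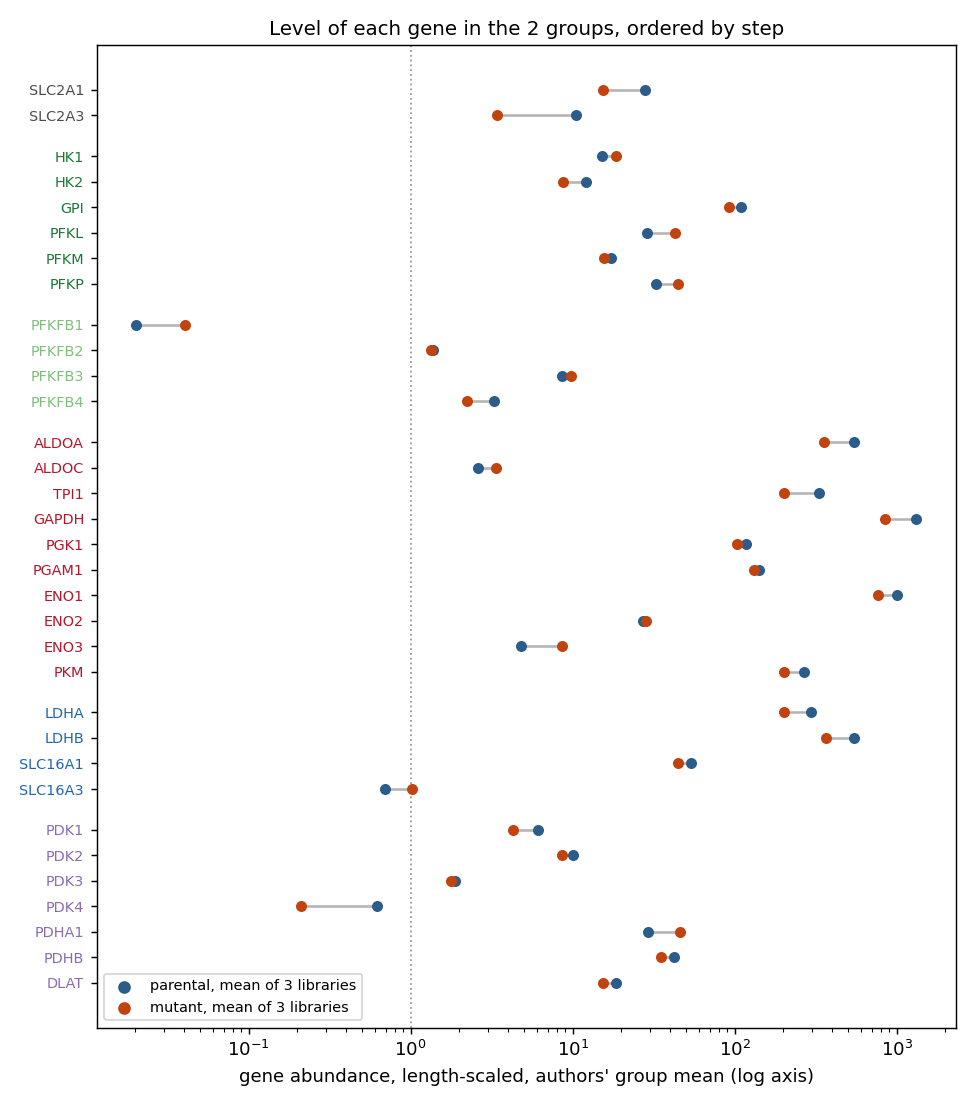
Level of the 33 genes in mutant and parental groups, as the authors' group means of 3 libraries summed over transcripts, on a log axis, with genes ordered by step and the minimum of 1 dotted. GAPDH and ENO1 are the highest and PFKFB1 the lowest, and SLC2A3 shows the widest gap among the genes kept (3.42 against 10.4).

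Glucose enters through carriers of the SLC2A family, and both carrier genes of the set lay lower in the mutant group. SLC2A3 encodes GLUT3, a carrier of high affinity known from neurons, and it stood at 3.42 in mutant and 10.4 in parental cells, which is 32.8% of the parental level (log2 ratio -1.37; chromosome 12, 7919230 to 7936275, minus strand, build hg38). Of all genes kept, 0.687% had a lower log2 ratio. SLC2A3-201, its main transcript, had 3.01 against 9.73 and a p of 0.00165 per the authors' deposited table, with an adjusted p of 0.368. SLC2A1 encodes GLUT1, the carrier of most dividing cells, and stood at 15.4 against 28.1, or 54.7% of the parental level (log2 ratio -0.83; chromosome 1, 42925375 to 42959176, minus strand).

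The reads of SLC2A1 were placed mostly on SLC2A1-208, a transcript annotated as a target of nonsense-mediated decay, at 11.2 against 20.1 (p 0.0101 and adjusted p 0.573 per the authors' deposited table). The coding SLC2A1-203 had 2.95 against 6.42 (p 0.0663). All 2398 exonic bases of SLC2A1-208, in 9 exons, also lie in the 10 exons of SLC2A1-203, which hold 3670 bases. Both forms lay lower in the mutant group, and neither share of the gene differed much, since SLC2A1-208 held 72.6% of the mutant and 71.6% of the parental sum.

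Hexokinase, glucose phosphate isomerase and phosphofructokinase carry glucose to fructose 1,6-bisphosphate, and their 6 genes summed to 222 in mutant and 216 in parental cells. HK1, the housekeeping hexokinase gene, stood at 18.4 against 15.2, and HK2, the inducible one, at 8.72 against 12.1 (log2 ratios 0.27 and -0.43). Within HK2 the group means placed the difference on 1 of its main coding transcripts, and whether its forms differ from each other was not tested. HK2-202 had 3.93 against 7.15 (p 0.293 per the authors' deposited table), whereas HK2-201 had 4.79 against 4.91 (p 0.909 there). GPI, which encodes the isomerase, stood at 92.0 against 109.5.

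Phosphofructokinase commits sugar to glycolysis, and its 3 genes differed in direction. PFKL, the liver type, stood at 43.0 in mutant and 28.8 in parental cells, or 149% of the parental level (log2 ratio 0.56; chromosome 21, 44300051 to 44327376, plus strand). PFKP, the platelet type, stood at 44.7 against 32.8, and PFKM, the muscle type, at 15.5 against 17.3 (log2 ratios 0.44 and -0.14). Together they summed to 103 against 78.9, and PFKM held 15.03% of the mutant and 21.9% of the parental sum. The main transcripts PFKL-201 and PFKP-203 had p-values of 0.454 and 0.255 per the authors' deposited table, while the minor coding PFKP-201 had 1.57 against 0.704 (p 0.0342, adjusted p 0.703). PFKL did not stay past the fold on its protein-coding transcripts alone (0.45), nor with trends on GC content and length taken off (0.33).

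The PFKFB genes encode enzymes that make and break fructose 2,6-bisphosphate, the strongest activator of phosphofructokinase, and none of the 3 that were kept went past the fold. PFKFB3, the isozyme of dividing cells with the greatest kinase activity, stood at 9.74 against 8.55. PFKFB4 stood at 2.22 against 3.28 (log2 ratio -0.41, and -0.54 with 0.1 added in place of 1), and PFKFB2 at 1.34 against 1.37, where the sign turned on protein-coding transcripts (0.09). PFKFB1, of liver and muscle, was under the minimum with 0.0404 against 0.0201, which at the estimated read sizes is about 3 to 12 reads in the mutant group and about 1 in the parental one.

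**Figure D2:**
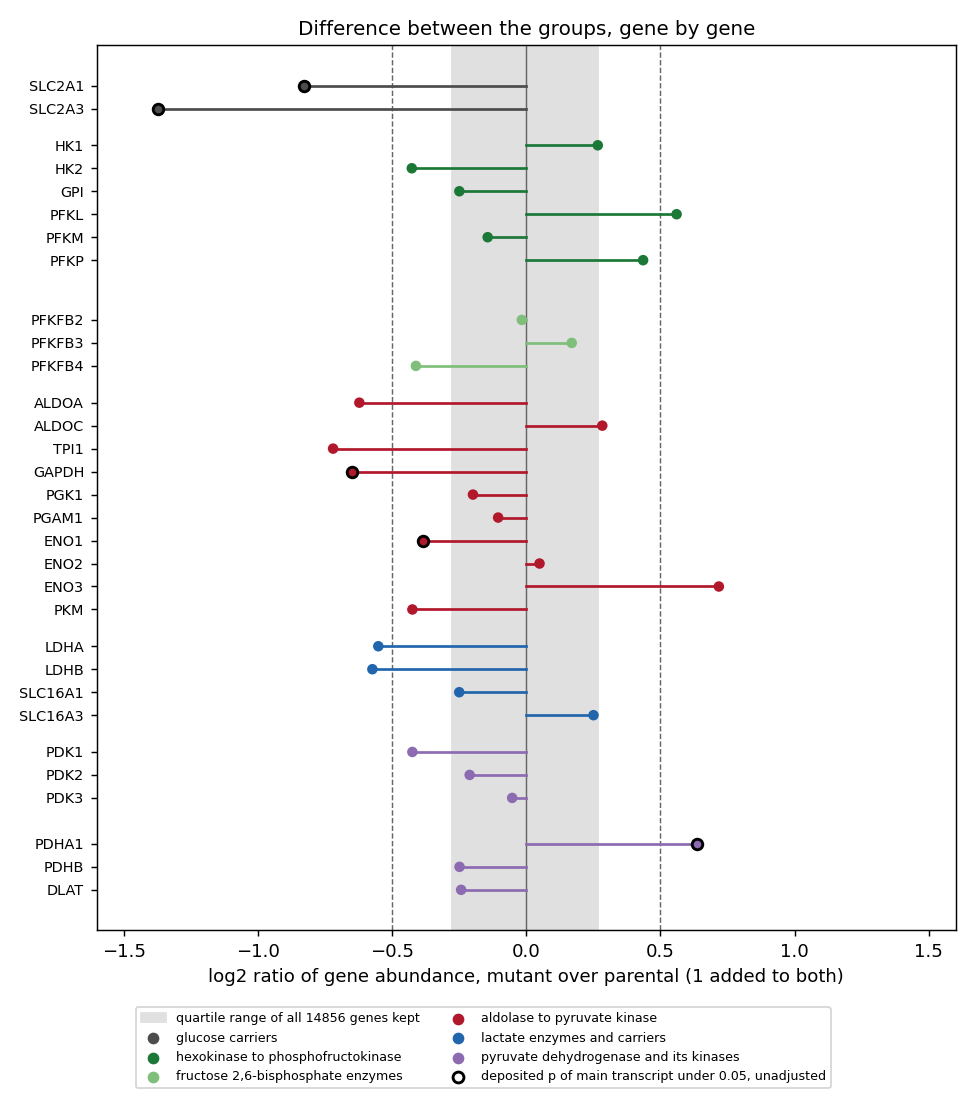
Log2 ratio of the gene sums, mutant over parental, for the 31 genes kept, coloured by step, with the fold of 0.5 dashed and the quartile range of all genes kept in grey. A black ring marks an unadjusted deposited p under 0.05 on the main transcript. SLC2A3 (-1.37) lies farthest to the left and ENO3 (0.72) farthest to the right.

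From aldolase to pyruvate kinase the pathway regains ATP, and the 10 genes of these steps summed to 2640 in mutant and 3766 in parental cells, 70.1% of the parental level. Of the 10 genes 7 lay lower and 3 higher, and the higher ones (ALDOC, ENO2 and ENO3) were minor isozymes. Aldolase splits the sugar into trioses. ALDOA, its main gene here, stood at 354 against 546 (log2 ratio -0.62; chromosome 16, 30064164 to 30070457, plus strand), and ALDOC, the brain form, at 3.39 against 2.60. The 4 ALDOA transcripts that held over 10% of the gene lay lower each, with p-values between 0.0784 and 0.393 per the authors' deposited table. TPI1, which encodes the isomerase of the trioses, stood at 201 against 331, or 60.6% of the parental level (log2 ratio -0.72; chromosome 12, 6867119 to 6870948, plus strand), and TPI1-202 had a p of 0.154 there.

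GAPDH, the dehydrogenase that makes NADH and a transcript often used as a loading control, was the most abundant gene of the set. It stood at 844 in mutant and 1326 in parental cells, 63.7% of the parental level (log2 ratio -0.65; chromosome 12, 6533927 to 6538374, plus strand). GAPDH-211 had 354 against 552 with a p of 0.000511 and an adjusted p of 0.257 per the authors' deposited table, the smallest of the 341 transcripts tested in the set. GAPDH-202 had 231 against 349 (p 0.288) and GAPDH-204 had 154 against 253 (p 0.235), so the 3 main transcripts lay lower by a like amount, with log2 ratios of -0.64, -0.59 and -0.71.

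Phosphoglycerate kinase and mutase, which follow, differed less. PGK1, the kinase that returns the first ATP, stood at 103 against 118, and PGAM1, the mutase, at 131 against 141 (log2 ratios -0.20 and -0.10). Enolase makes phosphoenolpyruvate, and ENO1, its widespread form, stood at 766 against 999 (log2 ratio -0.38; chromosome 1, 8861000 to 8879250, minus strand). ENO1-201, which held 93.9% of the mutant sum, had a p of 0.0139 and an adjusted p of 0.624 per the authors' deposited table. ENO2, the neuronal form, was level at 28.3 against 27.3. ENO3, the muscle form, stood at 8.59 against 4.83, or 178% of the parental level (log2 ratio 0.72; chromosome 17, 4948092 to 4957131, plus strand), yet it made up little of the enolase sum of 803 against 1031. On its most abundant transcript alone ENO3 was inside the fold (0.32).

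ENO3 was carried mostly by transcripts that the annotation does not class as protein-coding. Its protein-coding transcripts held 36.8% of the mutant and 32.5% of the parental sum. The retained-intron form ENO3-214 had 2.34 against 1.67 (p 0.360), ENO3-216 had 0.624 against 0.128 (p 0.0292), and ENO3-205 had 0.168 against nearly 0 (p 0.000708, adjusted p 0.274), all per the authors' deposited table. PFN1, the profilin gene, overlaps ENO3 on the opposite strand at 193 against 279, and the counting was not stated to use strand, so reads of PFN1 and ENO3 cannot be told apart where they overlap.

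Pyruvate kinase ends glycolysis, and its gene PKM stood at 201 against 269 (log2 ratio -0.42; chromosome 15, 72199029 to 72231822, minus strand). PKM makes 2 enzymes by including 1 of a pair of coding exons: PKM1, of muscle and brain, uses the upstream one, and PKM2, of dividing cells, the downstream one. Both exons have the same length and are shown because they decide the isoform, in GENCODE transcript sequence of build hg38. They lie on the minus strand at chr15:72203022-72203188 (PKM1) and chr15:72202454-72202620 (PKM2). Capitals mark the 62 positions where they differ, and identity is 62.9%.
PKM1 exon: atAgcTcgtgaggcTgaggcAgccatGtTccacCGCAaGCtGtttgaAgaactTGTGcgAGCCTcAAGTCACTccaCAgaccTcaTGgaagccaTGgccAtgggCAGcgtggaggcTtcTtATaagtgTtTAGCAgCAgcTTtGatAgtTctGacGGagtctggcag
PKM2 exon: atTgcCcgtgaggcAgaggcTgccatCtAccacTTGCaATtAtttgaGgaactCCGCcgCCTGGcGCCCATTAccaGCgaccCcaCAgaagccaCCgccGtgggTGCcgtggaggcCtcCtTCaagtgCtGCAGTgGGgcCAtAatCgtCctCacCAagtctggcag

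Transcripts with the PKM2 exon summed to 147 in mutant and 212 in parental cells, nearly all of it PKM-202 (144 against 206, p 0.330 per the authors' deposited table). Those with the PKM1 exon summed to 6.44 against 4.44. PKM2 thus made up 95.8% of the mutant and 97.9% of the parental sum of the pair, so the PKM2 form prevailed in both groups. A further 15 transcripts with neither exon held 46.8 against 53.2.

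Lactate dehydrogenase interconverts pyruvate and lactate, and its genes for the A and B subunits lay lower by nearly the same factor. LDHA, the subunit known for lactate production, stood at 202 in mutant and 296 in parental cells, 68.1% of the parental level (log2 ratio -0.55; chromosome 11, 18394388 to 18408425, plus strand). LDHB, the heart subunit, stood at 366 against 545, 67.1% of the parental level (log2 ratio -0.57; chromosome 12, 21635342 to 21757857, minus strand). LDHA made up 35.6% of the mutant and 35.2% of the parental sum of both genes, so their balance was nearly the same. In the authors' deposited table LDHA-203 had a p of 0.322 and LDHB-201 a p of 0.177, while the retained-intron forms LDHB-209 (21.9 against 32.8) and LDHB-206 (21.1 against 31.9) had p-values of 0.0171 and 0.0356. With trends on GC content and length taken off, the log2 ratios were -0.45 for LDHA and -0.43 for LDHB, inside the fold.

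Lactate leaves through monocarboxylate carriers. SLC16A1, the gene of MCT1, stood at 44.8 against 53.4 (log2 ratio -0.25). SLC16A3, the gene of MCT4, an exporter known from cells under hypoxia, was close to the minimum with 1.02 against 0.694, and CSNK1D overlaps it on the opposite strand at 80.0 against 53.5. Its retained-intron form SLC16A3-208 had 0.149 against 0.0270, with a p of 0.0342 and an adjusted p of 0.703 per the authors' deposited table. SLC16A1 was thus the main carrier of the pair in both groups.

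The promoters of 30 of the 33 genes were matched by symbol in the RefSeq table (build GRCh38.p14), each with 250 bases before the start and 50 after it, and SLC2A3, SLC16A1 and PFKFB2 were not matched. The letters ACGTG, the core of the element that hypoxia-inducible factor binds, were searched on both strands. They stood in 11 of the 30 promoters (36.7%), against 21.4% of all 35116 promoters of the same length. CACGTG, the E-box of MYC and related factors, which contains ACGTG, stood in 4 of 30 (13.3%, against 7.26%), and the GC box GGGCGG in 22 of 30 (73.3%, against 44.95%). A match is a description of these letters and no evidence of binding. The start of each window was not matched to the transcripts that carry the levels above. Several windows begin inside the span of their gene, so they need not hold its main promoter. For GAPDH the window begins at 6535014 and the gene at 6533927, and for GPI at 34364742 and 34359480. Below are the windows of 4 genes. Those of LDHA and GAPDH hold the E-box, and both genes lay past the fold on the lower side. TPI1, past the fold on the same side, and PDHA1, past it on the higher side, have neither ACGTG nor CACGTG there. All 4 are on the plus strand, and capitals mark ACGTG on either strand. The windows are chr11:18394313-18394612 for LDHA, chr12:6535014-6535313 for GAPDH, chr12:6867281-6867580 for TPI1 and chrX:19343677-19343976 for PDHA1.
LDHA promoter: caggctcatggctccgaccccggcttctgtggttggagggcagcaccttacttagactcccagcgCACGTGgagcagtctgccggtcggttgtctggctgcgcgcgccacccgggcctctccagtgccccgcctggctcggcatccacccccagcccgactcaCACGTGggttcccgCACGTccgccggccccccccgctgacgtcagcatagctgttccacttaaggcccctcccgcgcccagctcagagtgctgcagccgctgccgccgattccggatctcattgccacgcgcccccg
GAPDH promoter: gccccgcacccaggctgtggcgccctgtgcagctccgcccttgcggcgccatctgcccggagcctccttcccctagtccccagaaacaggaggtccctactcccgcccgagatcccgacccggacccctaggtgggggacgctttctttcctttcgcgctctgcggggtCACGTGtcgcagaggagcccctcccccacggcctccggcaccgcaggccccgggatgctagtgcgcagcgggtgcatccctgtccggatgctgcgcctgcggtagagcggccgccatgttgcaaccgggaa
TPI1 promoter: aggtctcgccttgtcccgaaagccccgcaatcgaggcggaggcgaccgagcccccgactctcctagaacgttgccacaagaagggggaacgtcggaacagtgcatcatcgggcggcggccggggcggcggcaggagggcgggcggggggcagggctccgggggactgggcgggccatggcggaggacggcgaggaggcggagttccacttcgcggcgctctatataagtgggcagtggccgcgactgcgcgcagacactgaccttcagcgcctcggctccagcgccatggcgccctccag
PDHA1 promoter: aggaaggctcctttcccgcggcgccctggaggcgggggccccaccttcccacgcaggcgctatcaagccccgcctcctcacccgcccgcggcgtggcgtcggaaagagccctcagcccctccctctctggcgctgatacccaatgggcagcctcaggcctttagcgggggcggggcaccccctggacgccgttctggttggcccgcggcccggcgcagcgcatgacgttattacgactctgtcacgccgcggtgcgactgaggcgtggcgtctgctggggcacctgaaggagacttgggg

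Of the 11 genes with ACGTG in this window, all of them kept, 9 lay lower and 2 higher (ALDOC and ENO2), and of the 17 kept genes without it 10 lay lower and 7 higher. Besides LDHA and GAPDH, the genes with the E-box in this window were PDHB, which lay lower, and ALDOC. The part of these letters in the levels was not tested.

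Pyruvate dehydrogenase is the gate to the citric acid cycle. PDHA1, the gene of its E1 alpha subunit, was the 1 enzyme gene of the complex in the set that lay higher as a sum over transcripts. PDHA1 stood at 45.9 in mutant and 29.1 in parental cells, 158% of the parental level (log2 ratio 0.64; chromosome X, 19343893 to 19361705, plus strand). PDHA1-202 had 14.5 against 8.73, with a p of 0.0457 and an adjusted p of 0.703 per the authors' deposited table, and a processed transcript of the gene had 10.0 against 5.55 (p 0.124). PDHA1-206, the other coding form over 10% of the gene, was level at 6.55 against 6.63. PDHB, of E1 beta, stood at 35.2 against 42.0, and DLAT, of the E2 core, at 15.5 against 18.5 (log2 ratios -0.25 and -0.24).

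DLAT and PDK2 were the genes in which transcripts over 10% of the sum moved past the fold in opposite directions. DLAT-202 had 6.83 against 10.2 (p 0.0940), and DLAT-205, annotated as a target of nonsense-mediated decay, 2.54 against 1.29 (p 0.688), so that coding transcripts held 76.0% of the mutant and 89.9% of the parental DLAT sum. Pyruvate dehydrogenase kinases switch the complex off by phosphorylation. PDK2, the widespread one, summed to 8.57 against 10.1, while PDK2-203 had 3.07 against 1.33 (p 0.0670), PDK2-216 had 1.03 against 2.57 (p 0.298) and PDK2-206 had 1.07 against 2.16 (p 0.338), all p-values from the authors' deposited table. SAMD14, which overlaps PDK2 on the opposite strand, stood at 4.53 against 0.812, and its part in these forms was not tested.

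The other kinase genes were low. PDK1, a target of hypoxia-inducible factor, stood at 4.29 against 6.10 (log2 ratio -0.42), and PDK1-203 had a p of 0.0503 per the authors' deposited table. PDK3 stood at 1.79 against 1.89. PDK4, a kinase gene of fasting, was under the minimum at 0.210 against 0.621, which is about 34 to 147 reads in the mutant group and 66 to 110 in the parental one, with a p of 0.0556 for PDK4-201. As gene sums all 4 kinase genes were below the parental level, with a total of 14.9 against 18.7, beside a sum of 96.6 against 89.6 for the 3 enzyme genes. The enzyme sum counts the short forms of PDHA1 in full. The direction of PDK2 turned on its protein-coding transcripts (6.13 against 5.98, log2 ratio 0.03) and on PDK2-203 alone (0.80), and that of PDK3 turned with trends on GC content and length taken off (0.06).

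**Figure D3:**
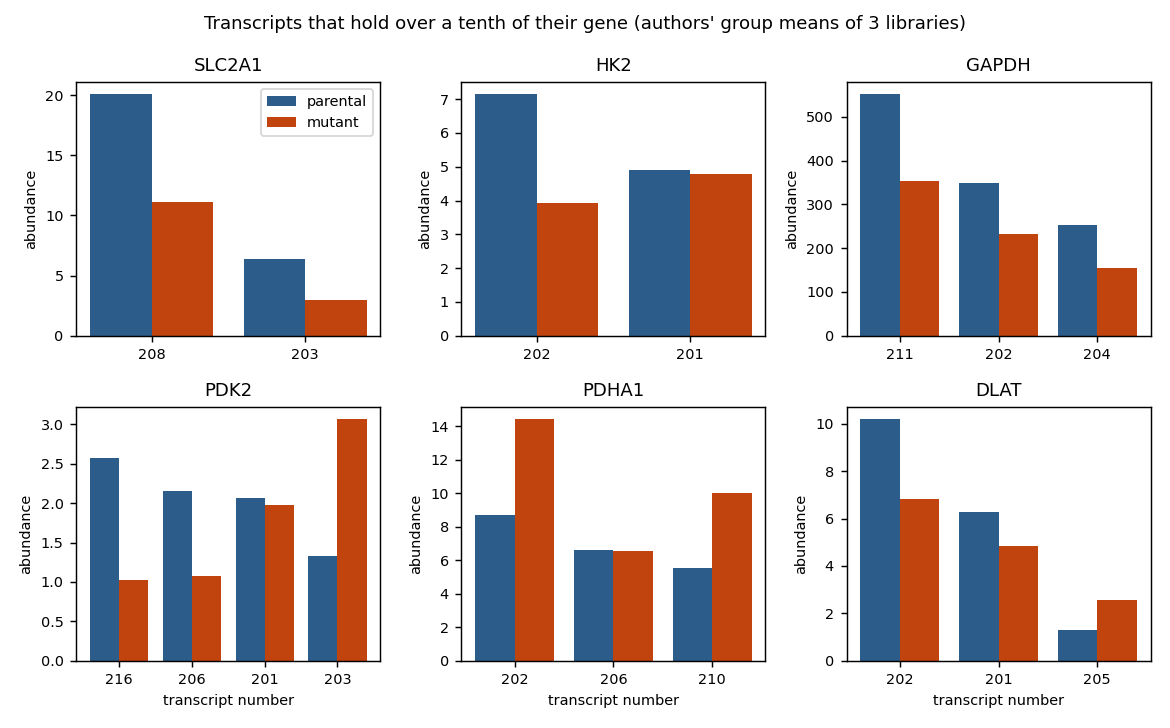
Abundance of the transcripts that held over 10% of SLC2A1, HK2, GAPDH, PDK2, PDHA1 and DLAT, as the authors' group means of 3 libraries, on linear axes that start at 0. The transcripts of SLC2A1 and GAPDH lie lower together, while PDK2-203 (3.07 against 1.33) and DLAT-205 (2.54 against 1.29) lie higher and the others of these genes lower.

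Abundance, GC content and near-identical copies were set beside these results. All 10 genes of the set at 100 or more over the mean of the groups lay lower, with a median log2 ratio of -0.49 and 5 past the fold, and over all 616 genes at that level 58.3% lay lower and 16.9% were lower past the fold. None of the 10 was higher past the fold, where 6.17% of those 616 genes were. Of the 21 genes under that level 12 lay lower and 9 higher, with a median of -0.05. The 10 genes run from GPI to LDHB and include GAPDH, ENO1, ALDOA, TPI1, PKM, LDHA, PGAM1 and PGK1. GC content went with the log2 ratio over all genes (Spearman's rho 0.31 across 14709 genes) and less so over the 31 genes (0.17), where genes of 1 table are no independent replicates. Median GC content was 54.4% in the set and 48.6% over all genes kept. With trends on GC content and length taken off, the median log2 ratio of the set was -0.14 in place of -0.24. The count of genes lower past the fold stayed at 7, with PKM (-0.51) and PFKFB4 (-0.52) in place of LDHA and LDHB. Taken singly, ALDOA (-0.75), TPI1 (-0.75), GAPDH (-0.69) and SLC2A1 (-0.90) then lay lower than before, and LDHA and LDHB lay nearer 0. The part of abundance in the lower levels was not tested.

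Copies of these genes are common in the genome, and 106 pseudogenes named after 13 of the genes were in the table. For TPI1 they summed to 67.1 in mutant and 99.9 in parental cells, 33.4% and 30.2% of the gene, so the level of TPI1 is uncertain. For LDHA they came to 15.5 against 20.8 and for GAPDH to 35.4 against 48.6, and for each of the other 10 genes to at most 5.05% of the gene. Genes at 1 or more in either group overlapped 14 of the 33 genes, on either strand.

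**Figure D4:**
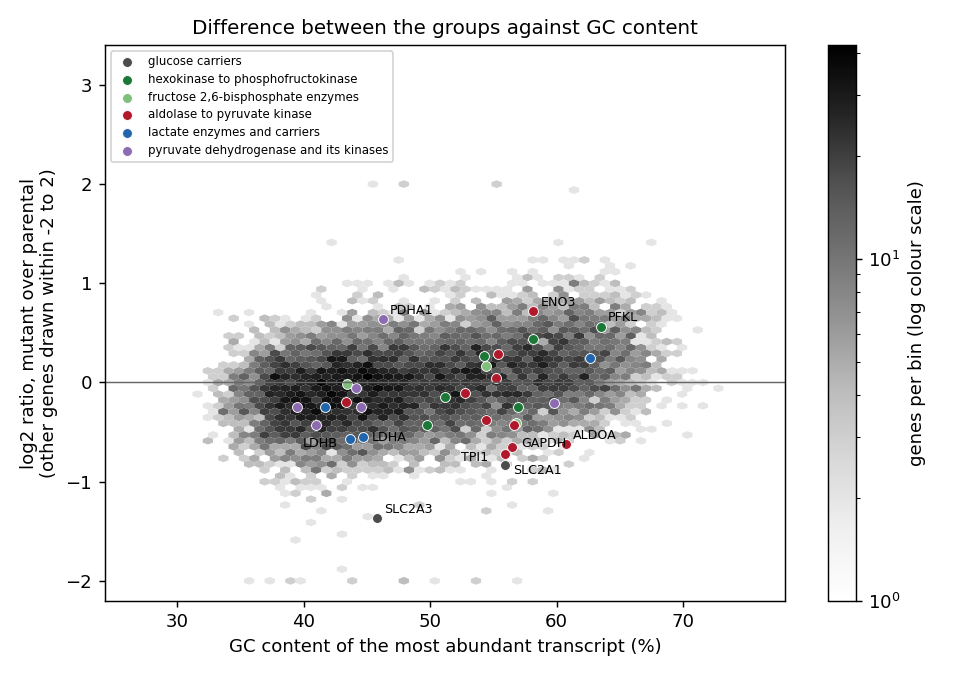
Log2 ratio of gene sums against the GC content of the most abundant transcript, for 14709 genes as grey bins and the 31 genes coloured by step. GAPDH, TPI1, ALDOA and SLC2A1 lie low at a GC content of 55.9% to 60.7%.

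Lists of neighbouring pathways had medians from -0.16 to 0.06, apart from gluconeogenesis, where 2 genes were kept (0.51). Of 12 kept among further glucose, lactate and pyruvate carriers and side reactions, 5 lay higher and 7 lower, with 1 higher and 3 lower at an unadjusted p under 0.05 per the authors' deposited table. GPD2, which passes electrons of cytosolic NADH to mitochondria, stood at 3.03 against 6.12 (p 0.00738), and BPGM, of 2,3-bisphosphoglycerate, at 8.34 against 11.3 (p 0.0226). SLC16A7, the gene of MCT2, stood at 1.29 against 0.434 (p 0.0173), and SLC2A6, a sugar carrier gene, at 2.87 against 1.62 (p 0.278). BSG, the chaperone that carries MCT1 to the membrane, stood at 297 against 345, and its kin EMB at 12.5 against 17.1 (p 0.0344). Isozymes known mostly from other tissues were low, with 2 of 13 kept, PGAM4 (5.05 against 4.94, on the opposite strand within PGK1) and LDHC (1.98 against 1.83).

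At the mitochondrial gate, DLD, of the E3 subunit that pyruvate dehydrogenase shares with other complexes, stood at 22.2 against 31.9 (log2 ratio -0.51, p 0.000751 for DLD-201 per the authors' deposited table). The other 7 genes of that list, among them the pyruvate carrier genes MPC1 (28.6 against 29.96) and MPC2 (31.4 against 36.3) and PDHX (19.0 against 18.5), lay within the fold. Citric acid cycle genes had a median of -0.13 over 20 genes, none past the fold. SDHC, of succinate dehydrogenase, stood at 50.2 against 71.3 (p 0.0329) and IDH3A, of isocitrate dehydrogenase, at 29.6 against 41.2 (p 0.0391), with p-values per the authors' deposited table.

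The pentose phosphate pathway, which branches off after hexokinase and supplies NADPH and ribose, had 7 genes higher and 3 lower of 10 kept. TKT, transketolase, was near level at 161 against 160. RPIA (10.4 against 17.8, p 0.00756) and RPE (9.94 against 19.5, p 0.0266), both of the ribose branch, lay lower past the fold, and PGLS higher at 62.3 against 44.2 (p 0.0467), with p-values from the authors' deposited table.

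In glycogen and hexose entry 6 of 14 genes lay higher and 8 lower. GALK1, of galactose entry, stood at 33.9 against 14.1 (p 0.237), GBE1, the glycogen branching enzyme gene, at 3.69 against 7.40 (p 0.00708) and PMM2, of mannose, at 5.06 against 8.42 (p 0.0730) per the authors' deposited table. GALT, the next step of galactose entry, stood at 21.0 against 14.3 (log2 ratio 0.53). Of the gluconeogenesis genes only PCK2 and G6PC3 were kept, at 53.3 against 31.4 and 37.5 against 30.6. Among 12 regulators of glycolysis genes 6 lay higher and 6 lower, none at an unadjusted p under 0.05. MLXIPL, the glucose-sensing factor ChREBP, stood at 13.3 against 6.28, and TXNIP, which holds back glucose uptake, at 7.43 against 14.96. MYC stood at 89.3 against 69.2 (log2 ratio 0.36).

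**Figure D5:**
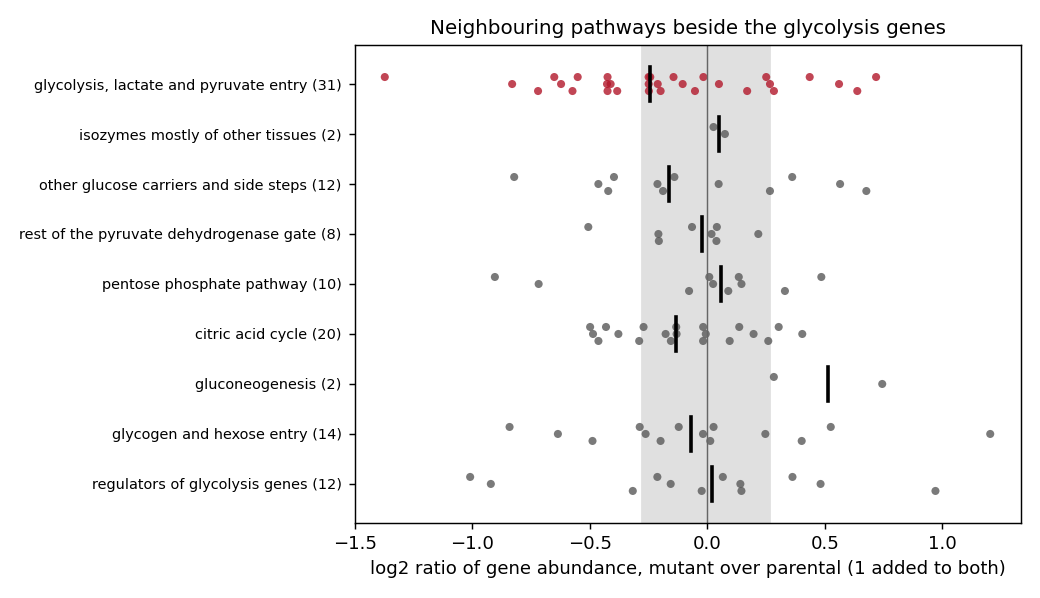
Log2 ratio of each gene kept, mutant over parental, in the glycolysis set (red) and in 8 neighbouring lists (grey), with the number of genes in brackets, the median as a bar and the quartile range of all genes shaded. The glycolysis set has a median of -0.24 and the citric acid cycle -0.13, while the pentose phosphate pathway lies at 0.06.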

How the data were processed

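RNA-seq of 6 libraries (3 parental, 3 mutant) was used as 1 table of transcripts. Per the submitters' processing notes, reads went through bcl2fastq, STAR and Partek on build hg38, while the sources used here state neither versions nor filters. Per the file headers, the authors deposited scores, namely least-squares group means (LSMean), p-values with step-up adjustment, a ratio and a fold change, and a signal called total counts, which is 3 times the sum of the group means and no read count. The authors' p-values were taken as they stand.

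From the group means 1 was taken off, and transcripts were summed to genes. The design named fits for single libraries and a description for group means, and the second held. The value of 1 read in each library was estimated from repeated steps of abundance times length, checked on simulated data. Transcript types, length and GC content came from GENCODE release 29, which named 98.98% of transcripts. Running medians over 40 bins, averaged over 5, gave the GC and length trends.

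The members, the lists and the tests were chosen with earlier results of these data known. All members are accounted for. Named in full are members past the fold or with a p under 0.05 on the main transcript, then single transcripts over 10% of their gene with such a p or in opposite directions. Of the other lists, genes past the fold or with such a p are named, at most 4 a list, and further genes and transcripts were picked after their values were seen. Some genes of these lists are not reported here. The software was Python 3.11.15 with pandas 2.3.3 and numpy 2.4.6.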

Additional observations from a re-analysis of the deposited data

How the results depend on the processing

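The median log2 ratio of the set stayed between -0.27 and -0.24 with an abundance of at least 5, no filter, an added 0.1, the most abundant transcript, protein-coding transcripts, or without transcripts that GENCODE does not name (chosen after seeing the data). It was -0.14 with GC and length trends taken off, where the count of lower genes past the fold was still 7. The count of lower genes past the fold was 7 and became 11 on the most abundant transcript and 1 at a log2 ratio of at least 1, and the 3 higher genes became 0 at that ratio. At a p under 0.01 the 4 lower genes by deposited p became 2 and the 1 higher gene 0, and over every transcript of at least 1 the higher count was 3. The cause was not tested, apart from the stricter thresholds. The higher count was 2 on the most abundant transcript, on protein-coding transcripts and with GC and length trends taken off. ENO3 was inside the fold on the most abundant transcript (0.32), as did PFKL (0.45). The sign turned for PDK2 on the most abundant transcript (0.80) and on protein-coding transcripts (0.031), for PFKM (0.082) and PFKFB2 (0.072) on the most abundant transcript, for PFKFB2 on protein-coding transcripts (0.085), and with trends taken off for ENO2 (-0.013), SLC16A3 (-0.030) and PDK3 (0.056). All of these 6 genes were inside the fold as sums.

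No paired analysis was possible because only group means were analysed, and leaving out single libraries, other normalizations and other test tools could not be run for the same reason. The mutant group holds the deepest library, so genes with few reads, such as PFKFB1, were easier to detect there.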
